A study of Mus musculus with 12 samples.

Results

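The genes described here are 7 subunits of the GABA-A receptor, chosen by name: Gabra2, Gabra3, Gabra4, Gabra5, Gabrb1, Gabrb2 and Gabrd. They are 7 of 55421 genes in the count table. All 7 passed the filter on low counts, which left 20015 genes. They encode 4 alpha subunits, 2 beta subunits and the delta subunit.

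The GABA-A receptor is a chloride channel of 5 subunits that opens when GABA, the main inhibitory transmitter of the cortex, binds between a beta and an alpha subunit. Most cortical receptors hold alpha and beta subunits with a gamma subunit and sit at synapses, where they give fast inhibition. Receptors in which delta takes the place of gamma lie outside synapses and carry a steady current. The alpha subunit sets much of the channel's kinetics, its place on the neuron and its answer to benzodiazepines, and the receptor is a main target of general anaesthetics. Dexmedetomidine, the drug given here, is a sedative that acts through alpha2 adrenergic receptors, which belong to a separate protein family.

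PolyA RNA was sequenced from the brains of male wild type C57BL/6 mice aged 10 to 12 weeks. All mice, the saline controls too, had been trained with 3 pairings of a tone and a 0.7 mA foot shock. They were then injected intraperitoneally with dexmedetomidine (Dex) at 40 µg/kg in 10 ml/kg or with the same volume of normal saline, and tissue was collected 2 h after training. The 4 groups hold 3 libraries each: prelimbic cortex after Dex (PL Dex), prelimbic cortex after saline (PL saline), infralimbic cortex after Dex (IL Dex) and infralimbic cortex after saline (IL saline). Prelimbic and infralimbic cortex are neighbouring parts of the medial prefrontal cortex. No library of untrained mice was used, so the Dex comparisons address the drug after training. Separate mice are not stated in the labels for the libraries of a group, and p-values therefore reflect only how these libraries vary. Infralimbic tissue is named in the titles of the IL samples while the extraction protocol names prelimbic tissue for every sample, and the titles were followed.

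Totals ran from 6853832 to 7912150 counts in PL Dex, from 6867249 to 8847876 in PL saline, from 5419187 to 10874464 in IL Dex and from 10603069 to 16530596 in IL saline. The main axis of variation (35.8%) set PL apart from IL, and within PL it placed Dex libraries 1 and 2 and saline library 1 nearer to IL than the other 3. Slc17a7, the vesicular glutamate transporter of cortical excitatory neurons, was present at 614 CPM or more in every library. Markers of striatum, a neighbouring part of the forebrain, summed to 131 to 238 CPM in PL Dex, 109 to 380 in PL saline, 594 to 947 in IL Dex and 600.3 to 778 in IL saline. Each result on PL against IL below therefore compares dissected pieces that also differ in these markers, and their part in the results was not tested.

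The genes lie on 5 chromosomes, most of them beside other subunit genes (GRCm38 coordinates). Gabra2 (ENSMUSG00000000560, minus strand, chr5:70957597-71095849), Gabra4 (ENSMUSG00000029211, minus strand, chr5:71569749-71658308) and Gabrb1 (ENSMUSG00000029212, plus strand, chr5:71658113-72149037) lie with Gabrg1 within 1.398 Mb. Gabra5 (ENSMUSG00000055078, minus strand, chr7:57407672-57510059) lies with Gabrg3 within 0.794 Mb, and Gabra3 (ENSMUSG00000031343, minus strand, chrX:72432681-72656848) with Gabre and Gabrq within 0.587 Mb. Gabrb2 (ENSMUSG00000007653, plus strand, chr11:42419757-42629028) shares its chromosome with Gabra6. Gabrd (ENSMUSG00000029054, minus strand, chr4:155384980-155398112) has no listed subunit gene near it. Gabra4 and Gabrb1 overlap at their first exons on opposite strands, with 46 exonic bases in common, and Gabra5 shares 148 exonic bases with the antisense transcript Gm9962. Reads were counted without strand, so reads in those stretches cannot be assigned.

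Promoter windows (RefSeq, GRCm38.p6) run from 250 bases before to 50 bases after an annotated start, 300 bases each. A table of them held 10 windows of 6 of the genes; Gabrd had none in it. The 5 below are shown because 4 of them belong to the genes whose level was higher in PL than in IL, and the window of Gabra4 because it faces that of Gabrb1. Capitals mark TATAAA on either strand.
Gabra3, chrX:72656870-72657169, minus strand: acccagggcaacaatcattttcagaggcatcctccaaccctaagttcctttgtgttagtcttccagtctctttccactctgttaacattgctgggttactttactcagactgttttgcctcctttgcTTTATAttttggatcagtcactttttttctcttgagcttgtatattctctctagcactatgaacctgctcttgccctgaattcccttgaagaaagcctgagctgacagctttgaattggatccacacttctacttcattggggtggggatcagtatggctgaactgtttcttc
Gabra5, chr7:57510010-57510309, minus strand: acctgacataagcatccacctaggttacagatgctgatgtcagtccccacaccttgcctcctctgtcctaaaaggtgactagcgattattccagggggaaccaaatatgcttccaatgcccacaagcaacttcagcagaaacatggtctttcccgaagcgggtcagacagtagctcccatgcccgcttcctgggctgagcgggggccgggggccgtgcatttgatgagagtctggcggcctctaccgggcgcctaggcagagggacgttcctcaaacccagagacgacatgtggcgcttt
Gabrb1, chr5:71657671-71657970, plus strand: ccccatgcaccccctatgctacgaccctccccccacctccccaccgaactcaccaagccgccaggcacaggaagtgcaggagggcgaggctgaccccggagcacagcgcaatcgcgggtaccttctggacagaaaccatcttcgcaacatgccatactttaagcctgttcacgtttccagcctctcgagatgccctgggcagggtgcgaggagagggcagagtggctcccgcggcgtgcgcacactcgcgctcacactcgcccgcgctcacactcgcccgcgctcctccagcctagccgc
Gabrb2, chr11:42420190-42420489, plus strand: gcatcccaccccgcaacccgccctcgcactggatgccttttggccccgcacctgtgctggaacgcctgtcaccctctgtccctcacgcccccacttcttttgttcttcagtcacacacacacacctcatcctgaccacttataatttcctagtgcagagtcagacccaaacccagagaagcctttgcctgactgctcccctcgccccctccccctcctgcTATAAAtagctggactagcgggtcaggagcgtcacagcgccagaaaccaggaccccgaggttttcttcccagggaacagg
Gabra4, chr5:71658259-71658558, minus strand: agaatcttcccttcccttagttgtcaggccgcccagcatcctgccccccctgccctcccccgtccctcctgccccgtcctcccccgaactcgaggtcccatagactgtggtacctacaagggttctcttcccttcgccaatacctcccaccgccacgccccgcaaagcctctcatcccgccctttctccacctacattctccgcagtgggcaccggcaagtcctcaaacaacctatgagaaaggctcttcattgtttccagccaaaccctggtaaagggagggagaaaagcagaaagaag

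The windows shown had little in common. The Gabra3 window held 0 CpG, which 5.43% of 32851 windows of that length match, and TATAAA on its reverse strand at -123 from the start. The Gabrb2 window held 11 CpG and TATAAA at -30, the Gabra5 window 13 CpG, and the Gabrb1 window 25 CpG at 66.0% GC; the median over all windows was 7 CpG. TATAAA was found in 13.6% of all windows. Gabra3, Gabrb1 and Gabrb2 also had windows at other starts, not shown, so a window shown need not stand for its gene. That of Gabrb1 held 9 CpG at 50.3% GC, those of Gabrb2 held 9 CpG each and no TATAAA, and that of Gabra3 held 0 CpG. The starts of Gabra4 and Gabrb1 lie 387 bases apart, yet their windows differ in content, with 12 CpG in the Gabra4 window. The cAMP response element TGACGTCA (1.79% of all windows), the EGR element GCGTGGGCG (0.612%) and the sterol regulatory element TCACNCCAC (1.24%), searched on both strands, had no match in the 10 windows.

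Levels are given as CPM, counts scaled to the TMM-adjusted library size, in libraries 1, 2 and 3 of each group. Gabra3 encodes alpha3, a benzodiazepine-sensitive subunit. Its level was 181, 180.3 and 244 CPM in PL Dex and 214, 223 and 230.0 CPM in PL saline. In IL it was 142, 113 and 128 CPM after Dex and 116, 112 and 126 CPM after saline. Every PL library was above every IL library, whereas Dex and saline libraries overlapped in each region. Within PL Dex, library 3 stood above the other pair. Its mean was 202 ± 36.6 CPM in PL Dex, 222 ± 7.98 in PL saline, 128 ± 14.2 in IL Dex and 118 ± 7.41 in IL saline (SD, n = 3 each), and within each region the means lay within their spread.

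Gabra5 encodes alpha5, known in rodent hippocampus mainly from receptors outside synapses. Its level was 49.8, 41.2 and 58.1 CPM in PL Dex and 47.4, 52.2 and 54.7 CPM in PL saline. In IL it was 32.6, 39.5 and 35.7 CPM after Dex and 27.97, 35.4 and 32.8 CPM after saline. As for Gabra3, the PL libraries lay above the IL libraries without overlap, though PL Dex library 2 and IL Dex library 2 came close. With at least 183 counts per library, counting alone gave a coefficient of variation of up to 7.39%.

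Gabra2 encodes alpha2, found at synapses and on the axon initial segment of pyramidal cells. Its level was 80.7, 99.7 and 109.7 CPM in PL Dex, 131, 110.4 and 95.03 CPM in PL saline, 108.5, 112 and 111 CPM in IL Dex and 114, 103 and 118 CPM in IL saline. The 4 groups overlapped, and the spread was widest in PL, at 14.7 CPM (SD) in PL Dex and 17.99 in PL saline, against 1.88 in IL Dex and 8.02 in IL saline.

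Gabra4 encodes alpha4, which is insensitive to classical benzodiazepines and partners delta in forebrain receptors outside synapses. Its level was 135, 119 and 168 CPM in PL Dex, 155, 170.2 and 165 CPM in PL saline, 158, 154 and 123 CPM in IL Dex and 138, 136 and 130.1 CPM in IL saline. The PL saline libraries lay above the IL saline libraries without overlap, while the Dex libraries of the regions overlapped. Its mean was highest in PL saline, at 163 ± 7.52 CPM, and lowest in IL saline, at 134 ± 3.88 CPM.

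The beta subunits carry part of the GABA site. Gabrb1, for beta1, had 400.1, 374 and 477 CPM in PL Dex, 442, 475 and 417 CPM in PL saline, 343, 332 and 301 CPM in IL Dex and 308, 322 and 285 CPM in IL saline. Gabrb2, for beta2, had 289, 279 and 372 CPM in PL Dex, 334, 339.6 and 345 CPM in PL saline, 244, 210.4 and 213 CPM in IL Dex and 221, 219.6 and 227 CPM in IL saline. For either gene all PL libraries were above all IL libraries, and PL Dex library 3 was the highest of its group, as it was for Gabra2, Gabra3, Gabra4 and Gabra5.

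Gabrd, for delta, went the other way. Its level was 32.5, 38.5 and 31.4 CPM in PL Dex and 24.4, 25.3 and 36.0 CPM in PL saline. In IL it was 45.8, 40.7 and 43.8 CPM after Dex and 38.0, 42.8 and 46.1 CPM after saline. Each PL group lay below the IL group of the same treatment without overlap, and PL saline library 3 stood above the other pair of its group. Its lowest count was 161, for a counting coefficient of variation of 7.88%.

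**Figure D1:**
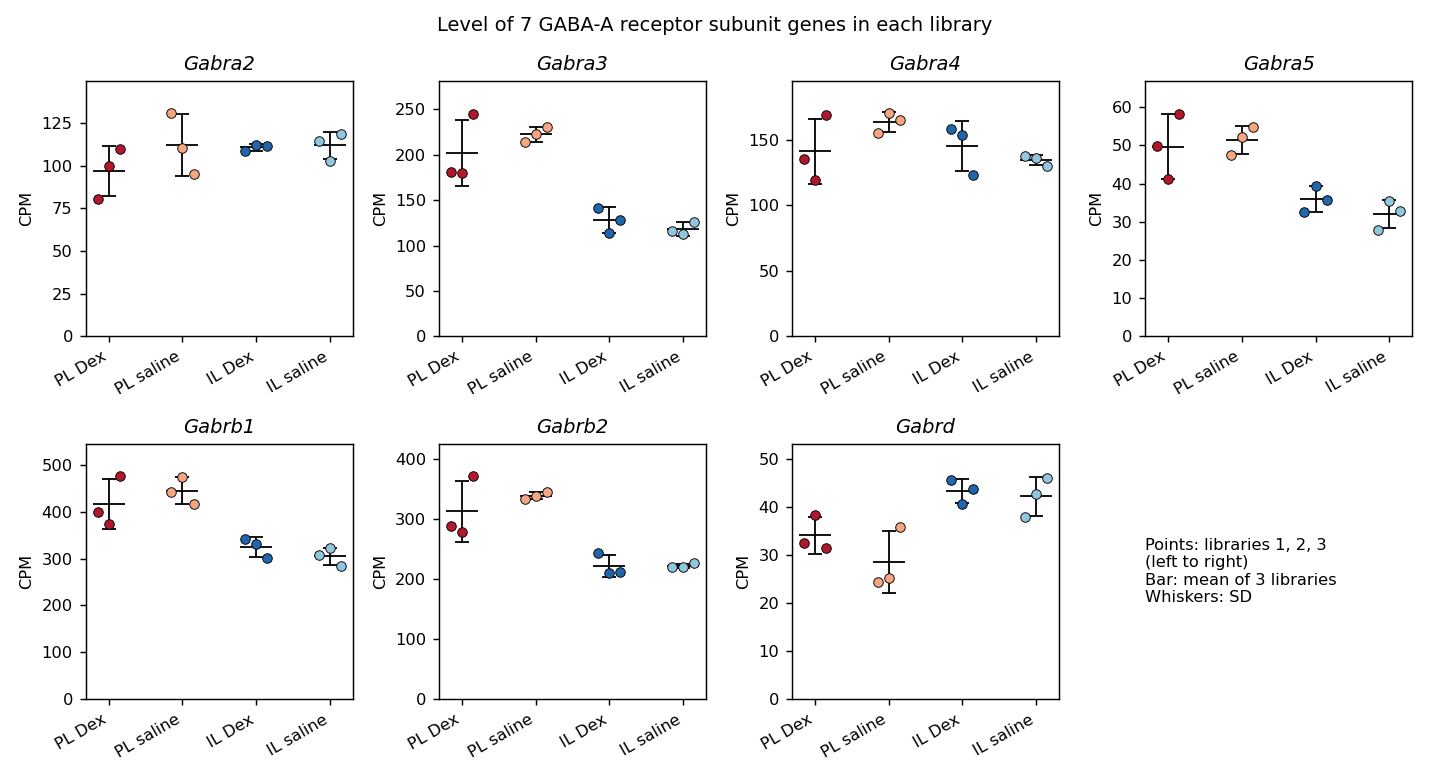
Level in CPM (vertical axes, from 0) of the 7 genes in PL Dex, PL saline, IL Dex and IL saline, with 1 point per library, a bar at the mean and whiskers of 1 SD (n = 3). The PL points of Gabra3, Gabra5, Gabrb1 and Gabrb2 lie above the IL points, and those of Gabrd lie below the IL points of the same treatment.

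To set the genes beside each other, levels were divided by exon length. On this scale of CPM per kb, averaged over the 12 libraries, Gabrb2 (43.1) and Gabra3 (42.7) came first of the 7, followed by Gabrb1 (27.0) and Gabra4 (23.99), and then by Gabra5 (14.2), Gabra2 (14.1) and Gabrd (12.9). By group mean on this scale the order moved with region, whereas in CPM Gabra2 was above Gabra5 in every group. Per kb, Gabra5 stood above Gabra2 in PL saline by mean, at 17.3 ± 1.25 against 14.7 ± 2.35 CPM per kb. PL saline library 1 had the reverse order, with Gabra5 at 14.1% and Gabra2 at 15.1% of the summed CPM per kb of the alpha genes described. In IL saline Gabra5 was below Gabra2 in every library, with means of 10.8 ± 1.27 against 14.6 ± 1.05 CPM per kb. Gabrd was the lowest of the 7 in PL saline, at 9.94 ± 2.24, while in IL saline it averaged 14.7 ± 1.41 and Gabra5 was the lowest. Gabrb2 and Gabra3 lay within their spread of each other in PL Dex and in IL Dex.

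**Figure D2:**
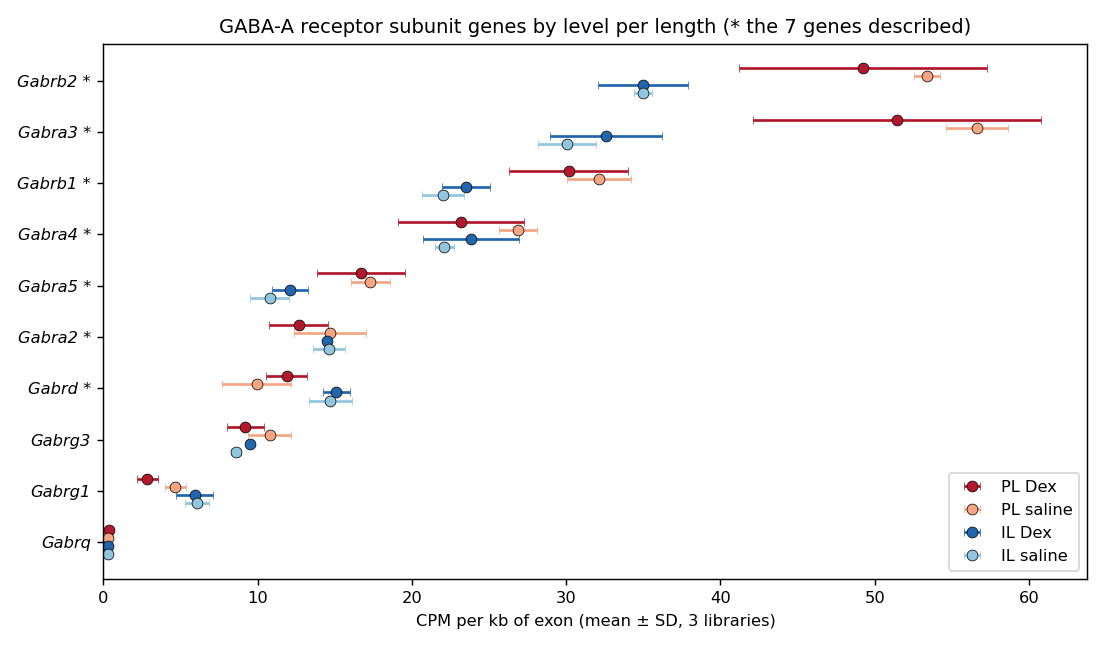
Level per exon length (horizontal axis, CPM per kb, mean and SD of 3 libraries) of the 7 genes and 3 further subunit genes, with stars at the 7 described and the groups PL Dex, PL saline, IL Dex and IL saline from top to bottom within a gene. Gabrb2 and Gabra3 are the highest of the starred genes and Gabrd in PL saline, at 9.94, is the lowest point among them.

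Between regions after saline, transcripts of alpha3, alpha5, beta1 and beta2 were higher in PL and that of delta was lower, while those of alpha2 and alpha4 did not pass the test. edgeR's quasi-likelihood test with Benjamini-Hochberg adjustment over 20015 genes called 5 of the 7 genes, 4 higher and 1 lower, where it called 18.7% of all genes tested. Of all genes, 9.97% were called higher and 8.7% lower. The median log2 difference of PL over IL was 0.54 for the 7 genes and -0.025 for all genes tested. The libraries of the regions did not overlap for 6 of the 7 genes, and for 40.3% of all genes.

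Gabra3 had the largest difference, 1.88-fold higher in PL saline than in IL saline (95% interval 1.59 to 2.23; log2 0.91, SE 0.118, adjusted p = 4.98e-05 by edgeR). Gabra5 was 1.603-fold higher (1.32 to 1.95; adjusted p = 0.00192), Gabrb2 1.53-fold (1.31 to 1.78; adjusted p = 0.000634) and Gabrb1 1.46-fold (1.26 to 1.69; adjusted p = 0.00124). Gabrd was 0.676 of its IL level in PL (0.548 to 0.834; log2 -0.56, adjusted p = 0.0106). The call on Gabrd was lost without PL saline library 1 (adjusted p = 0.0546), without PL saline library 2 (0.0727) and without IL saline library 3 (0.0547), with log2 values of -0.47, -0.48 and -0.50. Gabra4 had a log2 difference of 0.28 (SE 0.119, adjusted p = 0.105) and passed with only the libraries compared in the fit (adjusted p = 0.0146) and without PL Dex library 3 in the shared fit (0.0393). For Gabra2 the log2 value was 0.0025 (SE 0.123, 95% interval -0.25 to 0.26, adjusted p = 0.992). Between libraries of the same number, Gabra3, Gabra4, Gabra5, Gabrb1 and Gabrb2 were higher in PL in 3 of 3 pairs and Gabrd in 0 of 3. The libraries of these genes did not overlap between regions, so any pairing gives these counts.

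After Dex, Gabra3, Gabra5, Gabrb1 and Gabrb2 were again called higher in PL, with smaller fold changes, and none of the 7 was called lower. edgeR called 7.34% of all genes, 3.8% as higher and 3.54% as lower. Libraries did not overlap for 5 of the 7 genes, Gabrd included, and for 21.6% of all genes. Gabra3 was 1.58-fold higher in PL Dex than in IL Dex (95% interval 1.33 to 1.87; adjusted p = 0.00144) and Gabrb2 1.41-fold (1.21 to 1.64; adjusted p = 0.00572). Gabra5 at 1.38-fold (1.13 to 1.69; adjusted p = 0.0438) and Gabrb1 at 1.28-fold (1.11 to 1.49; adjusted p = 0.0356) were close to the threshold of 0.05. The call on Gabra5 was lost without any 1 of 9 libraries and that on Gabrb1 without any 1 of 6, with adjusted p of up to 0.168 and 0.135. Either call failed when PL Dex library 1 or 3, or any library of IL Dex, was absent; that on Gabra5 also failed without PL saline library 1 or 2 or IL saline library 2 or 3, and that on Gabrb1 without IL saline library 1. Gabrd had a log2 difference of -0.35 (SE 0.147, adjusted p = 0.183), Gabra2 -0.19 (adjusted p = 0.427) and Gabra4 -0.035 (adjusted p = 0.922), and the sign for Gabra4 turned without PL Dex library 2, IL Dex library 1 or IL Dex library 2. The median of the 7 was 0.36 on the log2 scale and that of all genes -0.0097. Gabra3, Gabra5, Gabrb1 and Gabrb2 were higher in PL in 3 of 3 same-numbered pairs and Gabrd in 0 of 3, which again follows from libraries that did not overlap. In tissue, fewer cells of a type and less RNA per cell cannot be told apart.

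**Figure D3:**
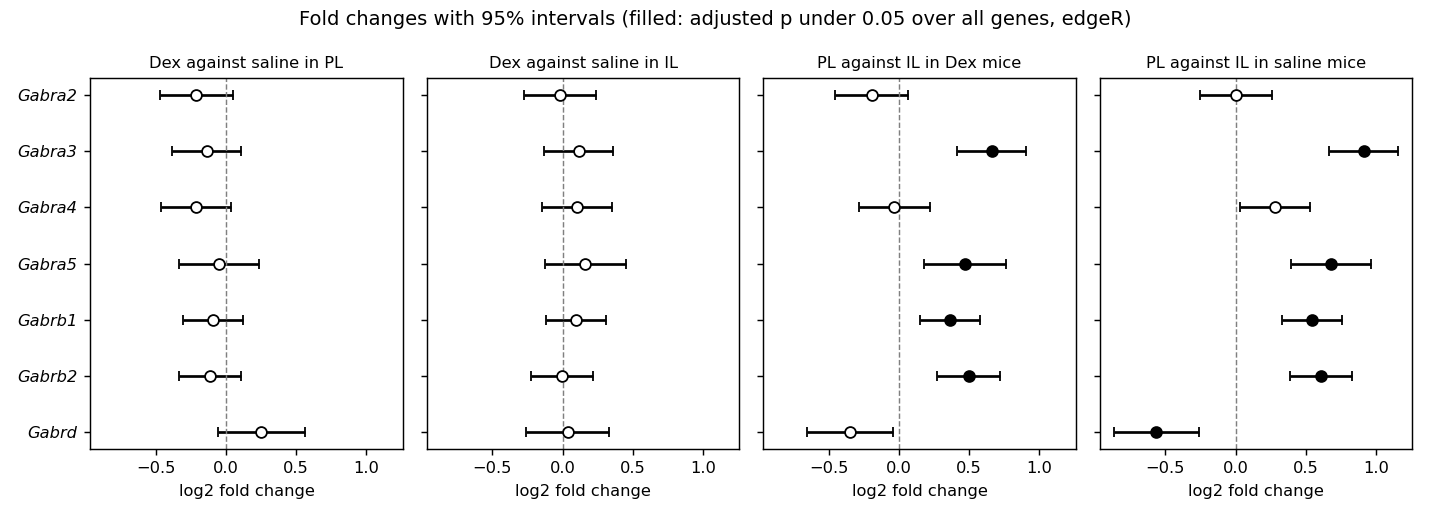
Log2 fold change (horizontal axes) of the 7 genes with 95% intervals in 4 comparisons, filled where edgeR's adjusted p was under 0.05. Filled points appear in the region panels only, 4 above 0 in Dex mice, and 4 above 0 with Gabrd below 0 in saline mice.

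The prelimbic cortex after Dex is the subject of the study's title, and none of the 7 subunit genes passed the test there. Fold changes of PL Dex over PL saline were 0.863 for Gabra2, 0.908 for Gabra3, 0.863 for Gabra4, 0.966 for Gabra5, 0.938 for Gabrb1, 0.922 for Gabrb2 and 1.19 for Gabrd. edgeR called 0 of the 7, and 0.02% of all genes. Adjusted p ran from 0.431 for Gabra4 to 0.898 for Gabra5. At an unadjusted p under 0.05 the count was 0 of 7, against 13.9% of all genes, and DESeq2 called 0 of 7. The 95% intervals of the fold changes reached down to 0.721 (Gabra2) and up to 1.48 (Gabrd), so changes beyond those sizes lay outside every interval. Libraries overlapped for all 7 genes, while those of 14.4% of all genes did not. The 3 pairs of same number did not move alike: Gabra2, Gabra3, Gabra4, Gabrb1 and Gabrb2 were lower in PL Dex in pairs 1 and 2 and higher in pair 3, Gabra5 was lower in pair 2 alone, and Gabrd was higher in pairs 1 and 2 and lower in pair 3. Without PL Dex library 3 the count of genes called over the whole table was 1484 in place of 4, while that among the 7 stayed at 0; the closest was then Gabra4, with a log2 value of -0.35 and an adjusted p of 0.0539.

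In IL the levels after Dex and saline were closer still. Log2 fold changes of IL Dex over IL saline ran from -0.015 for Gabra2 to 0.16 for Gabra5, and that of Gabrb2 was -0.0020, or 0.0042 with the size factors of DESeq2. edgeR called 0 of the 7 and 0% of all genes. At an unadjusted p under 0.05 the count was 0 of 7, against 1.06% of all genes, and DESeq2 called 0 of 7. The 95% intervals of the fold changes spanned 0.828 (Gabra2) to 1.37 (Gabra5). These intervals rest on a spread estimated over all 4 groups, those of PL included. With only the IL libraries in the fit, SE values on the log2 scale were smaller for all 7 genes. They were 0.0795 in place of 0.123 for Gabra2 and 0.118 in place of 0.138 for Gabra5, and 0 of the 7 were called. Libraries overlapped for all 7 genes, while those of 7.78% of all genes did not.

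The difference of the Dex effects, PL minus IL, tests whether the drug comparison depended on region. On the log2 scale it was -0.32 for Gabra4, -0.25 for Gabra3, -0.21 for Gabra5, -0.20 for Gabra2, -0.18 for Gabrb1, -0.11 for Gabrb2 and 0.22 for Gabrd. edgeR called 0 of the 7 and 0% of all genes, DESeq2 called 0 of 7, and at an unadjusted p under 0.05 the count was 0 of 7 against 6.73% of all genes. Adjusted p ran from 0.716 to 0.857. The smaller region differences after Dex than after saline are thus not shown to differ between the treatments.

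Base composition moved with 3 of the 5 comparisons. Of the 7 genes, 6 had a transcript GC content of 38.55 to 46.1%, below the median of 49.1% over 13043 genes, and Gabrd had 56.3%. Across those genes the log2 fold change of Dex over saline in PL had a Spearman correlation of 0.71 with GC content, the PL over IL difference after saline had one of -0.542, and the difference of the Dex effects one of 0.655. The value was -0.0834 for PL over IL after Dex and -0.0588 for Dex over saline in IL. Genes share their libraries, so these values are descriptions. Slopes of a library's log2 levels per 10% of GC were 0.136, 0.113 and -0.0882 in PL Dex libraries 1, 2 and 3, and -0.280, -0.353 and -0.0905 in those of PL saline. They ran from -0.0040 to 0.217 in IL Dex and from 0.0387 to 0.158 in IL saline.

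A fit with a smooth GC trend removed from each library left the region result after Dex nearly as it was, with log2 values of 0.63 for Gabra3, 0.47 for Gabrb2, 0.45 for Gabra5 and 0.34 for Gabrb1, all 4 called. After saline the 4 higher genes were also called in that fit, at 0.72, 0.40, 0.56 and 0.27, while Gabrd had -0.31 and lost its call (adjusted p = 0.0992). Gabra2 then had -0.34 and passed the test as lower in PL (adjusted p = 0.0296). For Dex against saline in PL, the GC-corrected values were 0.12 for Gabra2, 0.021 for Gabra3, 0.049 for Gabra5, 0.15 for Gabrb1 and 0.061 for Gabrb2, all 5 of the opposite sign to the uncorrected values, with 0.041 for Gabrd and -0.062 for Gabra4. None was called.

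**Figure D4:**
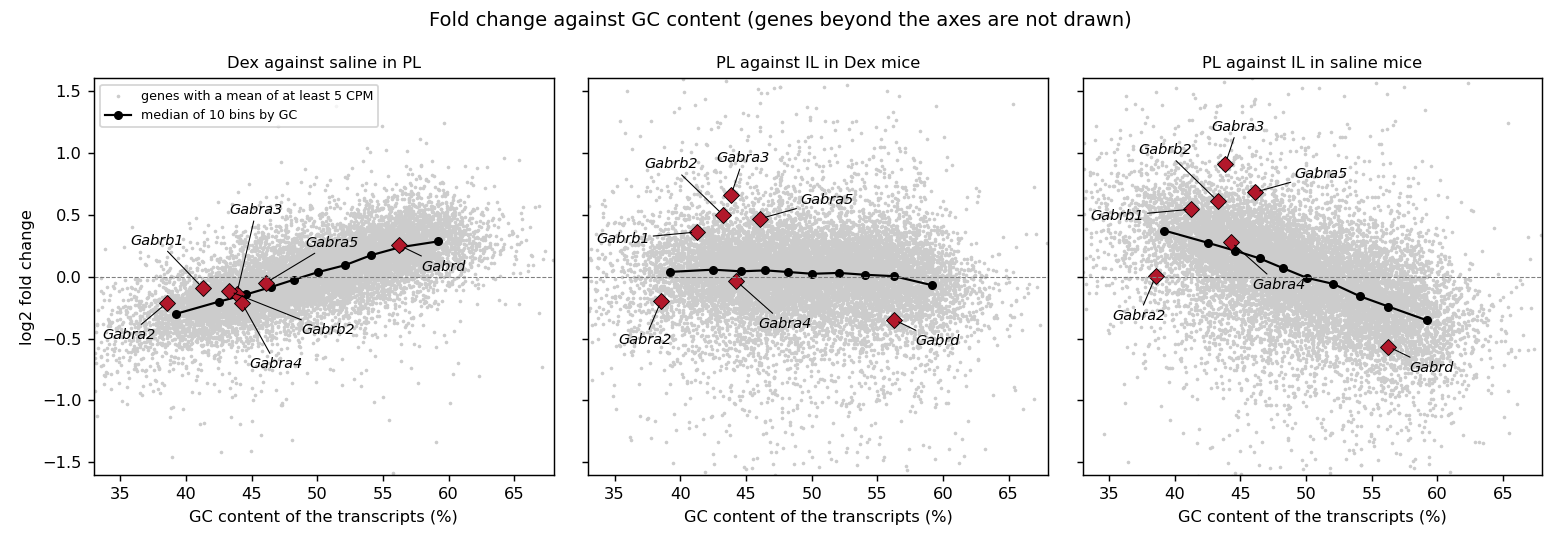
Log2 fold change (vertical axes) against GC content of the transcripts in percent (horizontal axes) in 3 comparisons, with grey points for genes of at least 5 CPM, a black line through the medians of 10 bins by GC, and diamonds for the 7 genes. In PL after Dex the diamonds follow the slope of all genes, while Gabra3 at 0.66 and Gabrb2 at 0.50 stand above a nearly flat line between the regions after Dex.

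Shares among the described genes of a subunit class do not depend on the scaling of libraries. Among the 4 alpha genes, counted per kb, Gabra3 made up 49.4% ± 1.04 in PL Dex, 49.0% ± 1.11 in PL saline, 39.3% ± 3.51 in IL Dex and 38.7% ± 1.37 in IL saline (SD, n = 3 each). Gabra2 made up 12.2% ± 1.64 in PL Dex, 12.7% ± 2.25 in PL saline, 17.5% ± 1.07 in IL Dex and 18.8% ± 1.05 in IL saline. Gabra4 made up 22.3% ± 1.004 in PL Dex, 23.3% ± 0.699 in PL saline, 28.6% ± 2.82 in IL Dex and 28.5% ± 1.57 in IL saline. For each of these 3 genes the PL and IL libraries did not overlap. Gabra5, in contrast, lay between 13.9% and 16.1% by mean, and its libraries overlapped. Among these 4 genes PL thus held a larger share of Gabra3 and smaller shares of Gabra2 and Gabra4 than IL, by shares that were described and not tested. Shares of a class add up to the whole, so a larger share of Gabra3 lowers the others. In CPM neither was lower in PL saline than in IL saline by mean, with 163 against 134 for Gabra4 and 112 in each for Gabra2. How often shares of other genes separate in this way was not computed.

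The 2 beta genes kept nearly the same shares in every group. Of their sum per kb, Gabrb2 made up 61.9% ± 0.903 in PL Dex, 62.5% ± 1.71 in PL saline, 59.8% ± 1.57 in IL Dex and 61.4% ± 1.86 in IL saline, and Gabrb1 the rest.

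**Figure D5:**
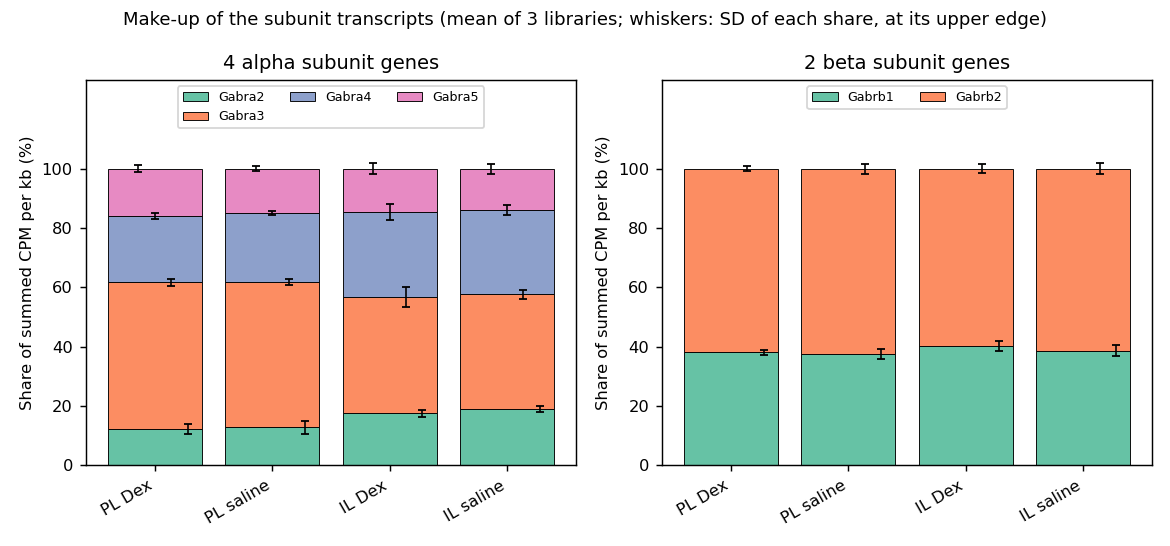
Share in percent (vertical axes) of each gene in the summed CPM per kb of the 4 alpha genes and of the 2 beta genes described, as stacked means of 3 libraries in PL Dex, PL saline, IL Dex and IL saline; whiskers are the SD of a share, drawn at its upper edge. The Gabra2 and Gabra4 bands are narrower in PL than in IL, 12.7% and 23.3% in PL saline against 18.8% and 28.5% in IL saline.

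A further 9 subunit genes were looked at for the setting. Of these, Gabrg1, Gabrg3 and Gabrq passed the low-count filter, and the rest had at most 84 counts over the 12 libraries. After saline, Gabrg3, for a gamma subunit, was called higher in PL, with 129 ± 16.7 CPM in PL saline against 103 ± 3.87 CPM in IL saline (log2 0.32, adjusted p = 0.0497), and none was called lower. After Dex, Gabrg1, also for a gamma subunit, was called lower in PL, with 22.3 ± 5.26 CPM in PL Dex against 46.5 ± 9.28 CPM in IL Dex (log2 -1.06, adjusted p = 0.000869). Of all genes, 9.97% were called higher and 8.7% lower in PL after saline, and 3.8% and 3.54% after Dex. Dex against saline called 0 of the 3 in either region, where it called 0.02% of all genes in PL and 0% in IL. Of the 3, Gabrg1 had the lowest p in PL (edgeR, unadjusted 0.000715, adjusted 0.174), with 22.3 ± 5.26 CPM in PL Dex against 36.6 ± 5.35 CPM in PL saline. Its transcript GC content was 35.1%, and log2 fold changes of this comparison had a Spearman correlation of 0.71 with GC content. GC-corrected values of these 3 genes were not examined.

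Lists of genes that place, feed or drive the receptor were counted in the same way. Their calls come from the fit without GC correction, and corrected values of these lists were not examined. The PL over IL difference after saline had a Spearman correlation of -0.542 with GC content. Of 13 genes for receptor placement, 0 were called higher and 3 lower in PL after saline, where 8.7% of all genes were called lower. These were Hap1, which takes part in receptor recycling (log2 -1.01, adjusted p = 0.000222), the auxiliary subunit gene Shisa7 (-0.39, adjusted p = 0.0285) and Lhfpl4, which links receptors to neuroligin at synapses (-0.36, adjusted p = 0.0219). After Dex, Hap1 alone was called (-0.58, adjusted p = 0.0237), while Shisa7 had -0.24 and Lhfpl4 -0.098. Nlgn2, the neuroligin of inhibitory synapses and the most abundant of the 13, had 225 ± 38.0 CPM in PL saline against 245 ± 20.4 CPM in IL saline and was not called. Of 8 genes for GABA synthesis, uptake and breakdown, 4 were called lower in PL after saline, 5 after Dex, and 0 higher in either. Of all genes, 8.7% were called lower after saline and 3.54% after Dex. They included the GABA synthesis enzyme Gad1, with 255 ± 40.7 CPM in PL saline against 392 ± 70.4 CPM in IL saline (log2 -0.62, adjusted p = 0.0135), and the vesicular GABA transporter Slc32a1, with 31.7 ± 11.1 against 76.7 ± 8.73 CPM (log2 -1.28, adjusted p = 0.000370). Abat, which breaks GABA down, was also lower after saline (log2 -0.38, adjusted p = 0.0201), as was Dbi (log2 -0.63, adjusted p = 0.0405), and Gad2 was lower after Dex (log2 -1.07, adjusted p = 0.0156). Dbi is counted among the 8 and the 4, but it does not itself make, take up or break down GABA. Of 5 genes for chloride transport, Stk39, a kinase acting on chloride transporters, was called higher in PL after saline (log2 0.55, adjusted p = 0.00616). Slc12a5, the neuronal chloride exporter and the most abundant of that list, had 441 ± 74.8 CPM in PL saline against 493 ± 21.6 CPM in IL saline and was not called. Dex against saline called 0 genes of these 3 lists in PL and 0 in IL, where it called 0.02% and 0% of all genes. At an unadjusted p under 0.05 (edgeR), PL had 4 of 13 placement, 0 of 8 GABA and 2 of 5 chloride genes, against 13.9% of all genes. Log2 fold changes of that comparison had a Spearman correlation of 0.71 with GC content. In IL the count was 0 in each list, against 1.06% of all genes.

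Some lists of cell markers moved with region as well. Of 4 astrocyte, 4 oligodendrocyte, 4 microglia and 3 endothelial markers, 0 were called between regions after saline or after Dex. Of 5 deep-layer markers, 3 were called higher in PL and 1 lower after saline, and 2 and 1 after Dex. Of 4 upper-layer markers, 1 was called higher in each. edgeR called 9.97% of all genes higher and 8.7% lower after saline, and 3.8% and 3.54% after Dex. Summed over 5 markers, neuronal transcripts were at 4406 to 5847 CPM in PL Dex, 4971 to 5524 in PL saline, 3174 to 3686 in IL Dex and 3036 to 3519 in IL saline. Of these markers, Snap25 and Syt1 were called higher in PL after saline (log2 0.88 and 0.82) and after Dex (0.69 and 0.64), Slc32a1 lower in each, and the other pair were not called. Interneuron markers summed to 489 to 640.4 CPM in PL Dex, 574 to 765 in PL saline, 794 to 1064 in IL Dex and 754 to 995 in IL saline. The 6 interneuron markers did not move together. Gad1 was called lower in PL after saline and after Dex and Gad2 after Dex, while Vip was called higher in each (log2 0.84 and 0.79), and Pvalb, Sst and Lamp5 had positive values that did not pass the test. Septal markers summed to 46.3 to 50.9 CPM in PL Dex, 39.2 to 81.7 in PL saline, 151 to 167 in IL Dex and 132 to 214 in IL saline. Ependymal markers reached at most 2.90 CPM in PL and 13.7 CPM in IL, with 2 of 3 at 0 in PL saline. The part of these markers in the differences of the subunit genes was not tested.

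The genes whose pattern over the 12 libraries was most like that of a member were found by the root mean square gap between log2 levels centred on each gene's mean, among 9837 genes of at least 10 CPM. Gabra3 was nearest to Oxr1 (gap 0.0547) and Snap25 (0.0618), Gabrb2 to Usp14 (0.0565) and Atrnl1 (0.0599), and Gabrb1 to Stx7 (0.0609) and Man1a2 (0.0622). Gabra4 was nearest to Cep170 and Ubxn7 (0.0598 each), Gabra5 to Arl1 (0.0878) and Stmn1 (0.0926), Gabra2 to Ppp1r3c (0.0931) and Scn3a (0.0962), and Gabrd to Mrtfa (0.0933) and Ramp1 (0.0975). Among the 7 themselves the closest pair was Gabrb1 and Gabrb2 (0.0985), and the farthest was Gabra3 and Gabrd (0.669). The gene next to Gabrb1 on the chromosome, Gabra4, was farther from it (0.184) than Gabrb2 on another chromosome. Gabrb1 was still the nearest of the 7 to Gabra4, and Gabra4 the nearest to Gabra2 (0.218), also on chromosome 5. A role of gene position was not tested.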

How the data were processed

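The authors deposited whole-number counts of reads per gene, with no normalization. Per the file headers, featureCounts 2.0.1 counted paired reads on exons by gene without strand, with release 98 of a GRCm38 annotation. HISAT2, SAMtools 1.8, Trim Galore and bcl2fastq are named in the submitters' processing notes, which give mm39 as the build. Coordinates of 99.471% of 55154 genes equal those of GENCODE M21 on GRCm38, the build used here. A further 12 count columns matched no label and were not used. Exon lengths come from the same deposited table.

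Counts were analysed with edgeR 4.0.16 (R 4.3.3): filterByExpr over 4 groups (20015 genes kept), TMM scaling (factors 0.935 to 1.05), and a robust quasi-likelihood fit to all 12 libraries with 8 residual degrees of freedom. The 5 comparisons were tested two-sided, with Benjamini-Hochberg adjustment over all genes tested and a threshold of 0.05. The script was tested on simulated data. CPM use the TMM-scaled sizes. Totals of 5419187 to 16530596 counts set the precision, and coefficients of variation from counting cover counting error only. GC content comes from GENCODE M21 transcripts, and the GC fit removes a natural spline with 4 degrees of freedom from each library.

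The labels give each sample a batch number equal to its sample number, and libraries were paired by it; whether same-numbered PL and IL libraries come from 1 mouse is not stated, so pair counts between regions are by batch number only. If they do, the fit without the block treats libraries of 1 mouse as independent. The correlation of the deviations of same-numbered libraries from their group means was 0.0163 to 0.252 between Dex and saline in PL, 0.441 to 0.533 in IL, 0.0228 to 0.352 between regions after saline and -0.159 to 0.0442 after Dex.

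Alternatives were DESeq2 size factors, no low-count filter, DESeq2 1.42.0, the replicate block, the GC fit with and without it, only the libraries compared, and each library left out. The 7 genes, lists and markers were chosen with earlier results of these data known. Beyond the 7, list genes are named where called, at most 4 per list and comparison by smallest p, or where most abundant, and 2 genes per member for likeness. Some genes of these lists are not reported here, so counts, shares and distances cover the genes named or listed.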

Additional observations from a re-analysis of the deposited data

How the results depend on the processing

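Across up to 7 alternatives and 12 fits with a library left out, 0 of the 7 genes were called for either effect of Dex or for their difference. For PL against IL after saline, 5 genes were called, 4 to 6 with a library left out and 6 with only the libraries compared, the sixth being Gabra4. After Dex 4 were called, 2 to 4 with a library left out and 2 with only the libraries compared, where Gabra5 and Gabrb1 lost their call (adjusted p = 0.113 each). Gabra3 and Gabrb2 were called between regions, in the same direction, in every fit run. The replicate block changed no call on the 7 genes: Gabra3 had a log2 difference of 0.92 after saline and 0.65 after Dex under it.

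Over all genes, Dex against saline in PL called 4; it called 0 with DESeq2 size factors, with the GC correction and with only the libraries compared, 2 with the GC correction and the replicate block, 193 with no low-count filter, 140 with DESeq2, and 0 to 1484 with a library left out. In IL it called 3 with no low-count filter. The difference of the effects called 4 with no low-count filter and 0 to 144 with a library left out. The counts were 1842 to 4649 between regions after saline and 783 to 1728 after Dex with a library left out, and 2393 after Dex with the GC correction and the replicate block, in place of 1469.

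Signs turned as follows, with no call unless stated. With the GC correction, Dex against saline in PL had 0.12 for Gabra2, 0.021 for Gabra3, 0.049 for Gabra5, 0.15 for Gabrb1 and 0.061 for Gabrb2, and with the block added 0.12, 0.018, 0.053, 0.15 and 0.060 for the same genes. The difference of the effects had 0.14 for Gabra2 (0.13 with the block), 0.068 for Gabrb1 (0.068), 0.072 for Gabrb2 (0.072) and -0.014 for Gabrd (-0.011). Gabra2 between regions after saline had -0.019 with no low-count filter, -0.34 with the GC correction and -0.33 with the block added, the last 2 called. Gabrb2 in IL had 0.00421 with DESeq2 size factors and 0.00626 with DESeq2. With a library left out, Gabra5 in PL spanned -0.17 to 0.078; in IL, Gabra2 spanned -0.073 to 0.026, Gabrb2 -0.073 to 0.034 and Gabrd -0.035 to 0.10; between regions, Gabra2 spanned -0.12 to 0.11 after saline and Gabra4 -0.17 to 0.082 after Dex. The cause was not tested. All 24 shares moved by more than 1 SD on raw counts in place of CPM per kb. Counts were lowest for Gabrd, at 161 in PL saline library 1, and for Gabra5, at 183 in IL Dex library 1.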

Other observations

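Counts of the subunit genes were also set against those of Snap25, a synaptic vesicle fusion gene present in all neurons, which was itself called higher in PL. This ratio was chosen after the data were seen and does not depend on library scaling; values are the mean ± SD of 3 libraries and were not tested. Per 100 counts of Snap25, Gabrb1 had 22.4 ± 1.85 in PL Dex, 21.7 ± 1.32 in PL saline, 27.8 ± 2.17 in IL Dex and 27.6 ± 3.13 in IL saline. Gabrb2 had 16.7 ± 0.950 in PL Dex, 16.6 ± 0.299 in PL saline, 18.99 ± 1.16 in IL Dex and 20.1 ± 0.745 in IL saline. For both beta genes the PL libraries lay below the IL libraries on this scale, the opposite of their order in CPM. The choice of reference gives this turn. After saline the log2 difference of PL over IL was 0.88 for Snap25, 0.54 for Gabrb1 and 0.61 for Gabrb2. Dividing by Snap25 lowers in PL any gene that rose less than it did. Gabra2 had 5.22 ± 0.975, 5.48 ± 0.874, 9.47 ± 0.485 and 10.1 ± 0.430 in the same order of groups, and Gabra4 had 7.52 ± 0.322, 8.00 ± 0.353, 12.4 ± 1.76 and 12.2 ± 0.965. Gabrd had 1.89 ± 0.555 in PL Dex, 1.40 ± 0.320 in PL saline, 3.71 ± 0.0927 in IL Dex and 3.82 ± 0.276 in IL saline. The PL libraries lay below the IL libraries for these 3 genes too. The share of all genes that separate in this way on the Snap25 scale was not computed, so the order is not shown to be particular to subunit genes. For Gabra5 the regions overlapped, with 2.66 ± 0.1995 in PL Dex, 2.52 ± 0.186 in PL saline, 3.08 ± 0.406 in IL Dex and 2.90 ± 0.393 in IL saline. Gabra3 also overlapped, at 10.1 to 11.8 in all libraries; Snap25 is one of the 2 genes nearest to it in pattern, so this ratio repeats that likeness.

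Gabra4 and Gabrb1, which face each other on chromosome 5, did not keep 1 ratio. Gabrb1 had 298 ± 15.01 counts per 100 counts of Gabra4 in PL Dex, 272 ± 16.8 in PL saline, 226 ± 15.9 in IL Dex and 227 ± 9.68 in IL saline, and every PL library was above every IL library. This restates their log2 differences of PL over IL, 0.54 for Gabrb1 and 0.28 for Gabra4 after saline, and 0.36 and -0.035 after Dex. The share of all gene pairs that separate in this way was not computed, so the order is not shown to be particular to this pair.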
